A study of Mus musculus with 10 samples.

Results

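The TGF-beta ligands and the genes that damp Smad signalling were examined as 10 genes of the 18193 with a named probe set on the array. The members were taken by a list of gene symbols, and 22 probe sets carried 1 of these symbols alone. The ligand side held Tgfb1, Tgfb2, Tgfb3, Inhba and Ltbp1, and the feedback side held Smad6, Smad7, Skil, Ski and Pmepa1. Each gene was represented by whichever of its probe sets averaged highest across the 10 arrays, and the other probe sets are given beside it. All 10 genes passed the filter on low values in both cell lines, as did 20 of the 22 probe sets in the fibroblasts and 17 in the 10T1/2 cells.

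TGF-beta ligands are secreted in a latent form that Ltbp1 tethers to the matrix, and once released they bind a pair of kinase receptors on fibroblasts, which phosphorylate Smad2 and Smad3. These enter the nucleus with Smad4 and switch on matrix and contractile genes, and among their targets are genes that shut the signal down. Activin A, the dimer of the subunit that Inhba encodes, uses its own receptors and the same Smads, and in mesenchymal cells the pathway is known for driving the myofibroblast and smooth muscle programme.

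The study examined Med23, a Mediator subunit, in cells on the way to smooth muscle or fat. Mouse embryonic fibroblasts (MEFs), wild type (WT) or knockout for Med23 (KO), came from embryos of day 9.5 and had immortalised on their own in culture, and each genotype was sampled serum-free (0 min) and at 30 and 90 min of serum treatment, on 6 arrays. 10T1/2, a mouse embryo cell line that can turn into several mesenchymal cell types, gave 4 arrays: an untreated control, MAL overexpression, Med23 knockdown (also labelled MED23 deficiency), and both treatments, where MAL is an actin-regulated coactivator of SRF. Both lines were maintained in medium with 10% FBS, and each condition had 1 array. The labels name no second line of either genotype, so genotype and the immortalised culture that carried it cannot be told apart in the MEFs. The way MAL or the knockdown was delivered was not given in the sources used here. With 1 array a condition there are no replicates, so the SE and p-values below come from additive fits (genotype and serum time in MEFs, MAL and knockdown in 10T1/2 cells), whose residual holds noise and any interaction.

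All values are log2 expression values as deposited, with array medians of 3.86 to 3.93 in MEFs and 3.64 to 3.70 in 10T1/2 cells. Med23 read 7.14, 7.39 and 6.90 in WT MEFs and 3.30, 3.30 and 2.91 in KO MEFs at 0, 30 and 90 min (log2 difference -3.97, SE 0.13, limma with Benjamini-Hochberg adjusted p = 9.27e-06). The 3 KO values were under their array medians, and with levels under the array median raised to it the difference was -3.25, at least 9.51-fold. It read 5.45 in the 10T1/2 control, 5.67 under MAL, 4.24 under knockdown and 3.94 under both (-1.47, SE 0.22, adjusted p = 0.0689, and 0.0052 in a fit over all 10 arrays). Mrtfa, the gene for MAL, read 8.65 in the control, 8.33 under MAL, 8.54 under knockdown and 8.44 under both. Its MAL coefficient was -0.21 (SE 0.19, limma adjusted p = 0.515), so the MAL label was not seen on this probe set and rests on the sample titles. Whether the probe set reads the overexpressed MAL was not tested. Of 12 fibroblast markers, 10 lay above the array median on every WT and every KO array, and Thy1 and Lum were under it throughout. The median of the 12 poly-A spike-in probe sets was higher in KO than in WT MEFs at each time (5.96, 6.40 and 6.0 against 5.80, 6.16 and 5.68), and it ranged from 6.96 to 8.25 in 10T1/2 cells, and its part in the results was not tested. The 3-prime minus 5-prime difference of the actin control probe sets stayed between -0.07 and 0.33 on all 10 arrays.

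The stretches before the annotated starts of 5 members are printed here because these genes carry the results that follow. Tgfb1 and Ltbp1 were lower in KO MEFs, Inhba and Smad6 moved in opposite directions after 90 min of serum, and Tgfb2 differed most in the 10T1/2 cells with Med23 knockdown. Each run holds the 250 bases before the start, 5' to 3' on the strand of the gene, from the RefSeq promoter table (GRCm38.p6). The windows are chr7:25686752-25687001 (plus strand) for Tgfb1, chr17:75005279-75005528 (plus) for the first of the 2 Ltbp1 starts, chr13:16011601-16011850 (plus) for Inhba, chr9:64022060-64022309 (minus) for Smad6 and chr1:186705990-186706239 (minus) for Tgfb2. Capitals mark matches to the motifs named after the sequences.
Tgfb1: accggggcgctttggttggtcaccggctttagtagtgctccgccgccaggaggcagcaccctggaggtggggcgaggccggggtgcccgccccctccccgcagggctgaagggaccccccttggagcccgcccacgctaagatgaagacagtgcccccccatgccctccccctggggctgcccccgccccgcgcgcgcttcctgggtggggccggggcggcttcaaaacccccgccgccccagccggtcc
Ltbp1: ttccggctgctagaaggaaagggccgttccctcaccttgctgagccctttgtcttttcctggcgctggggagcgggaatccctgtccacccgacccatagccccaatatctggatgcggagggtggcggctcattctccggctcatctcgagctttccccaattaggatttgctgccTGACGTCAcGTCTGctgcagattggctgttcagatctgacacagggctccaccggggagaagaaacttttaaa
Inhba: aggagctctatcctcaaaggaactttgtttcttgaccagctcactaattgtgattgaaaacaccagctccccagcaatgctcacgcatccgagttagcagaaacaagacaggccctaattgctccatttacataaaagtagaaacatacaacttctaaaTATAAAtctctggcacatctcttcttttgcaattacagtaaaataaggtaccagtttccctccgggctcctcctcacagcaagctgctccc
Smad6: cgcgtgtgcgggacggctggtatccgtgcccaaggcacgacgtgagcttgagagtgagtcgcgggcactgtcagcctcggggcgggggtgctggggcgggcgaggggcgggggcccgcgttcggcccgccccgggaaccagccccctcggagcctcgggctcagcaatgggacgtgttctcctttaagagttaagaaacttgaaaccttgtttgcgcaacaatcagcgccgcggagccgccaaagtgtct
Tgfb2: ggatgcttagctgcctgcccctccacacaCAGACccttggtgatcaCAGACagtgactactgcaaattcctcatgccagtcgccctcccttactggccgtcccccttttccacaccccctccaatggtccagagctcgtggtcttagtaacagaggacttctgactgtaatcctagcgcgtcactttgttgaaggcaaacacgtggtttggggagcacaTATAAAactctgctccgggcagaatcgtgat

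Both strands of these 250 bases were searched for 6 motifs. They were the SMAD box CAGAC, the palindromic SMAD element GTCTAGAC, the AP-1 site TGANTCA, the CRE TGACGTCA, the TATA box TATAAA and the CArG box, to which SRF binds. The SMAD box was found in 42.2% of the 32851 windows of the table, the palindromic element in 0.167%, the AP-1 site in 6.75%, the CRE in 1.55%, the TATA box in 12.4% and the CArG box in 1.47%. The Tgfb2 window held 2 SMAD boxes and a TATA box 31 bases before the start, the Inhba window held a TATA box 91 bases before the start, and the first Ltbp1 window held a CRE next to a SMAD box, at 73 and 64 bases. The second Ltbp1 window held 2 SMAD boxes. None of the 6 motifs was found in the windows of Tgfb1, Smad6 and Ski, which says only that these letters are not there. Tgfb3, Smad7, Skil and Pmepa1 had no window that was used.

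The comparison of KO with WT MEFs asked how the absence of Med23 goes with expression. Of the 10 members, 5 fell (Tgfb1, Ltbp1, Smad7, Skil and Pmepa1) and 1 rose (Ski), where limma called 42.1% of all 11933 genes tested, 21.2% higher and 20.8% lower. The median of the members was -0.52 and that of all genes tested -0.02. A call was therefore common on these arrays, and the KO and WT arrays of 2 members (Tgfb1 and Ltbp1) did not overlap, against 41.2% of all genes. With no term for serum time in the model, Tgfb1 and Ltbp1 were called and the other 4 were not.

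**Figure D1:**
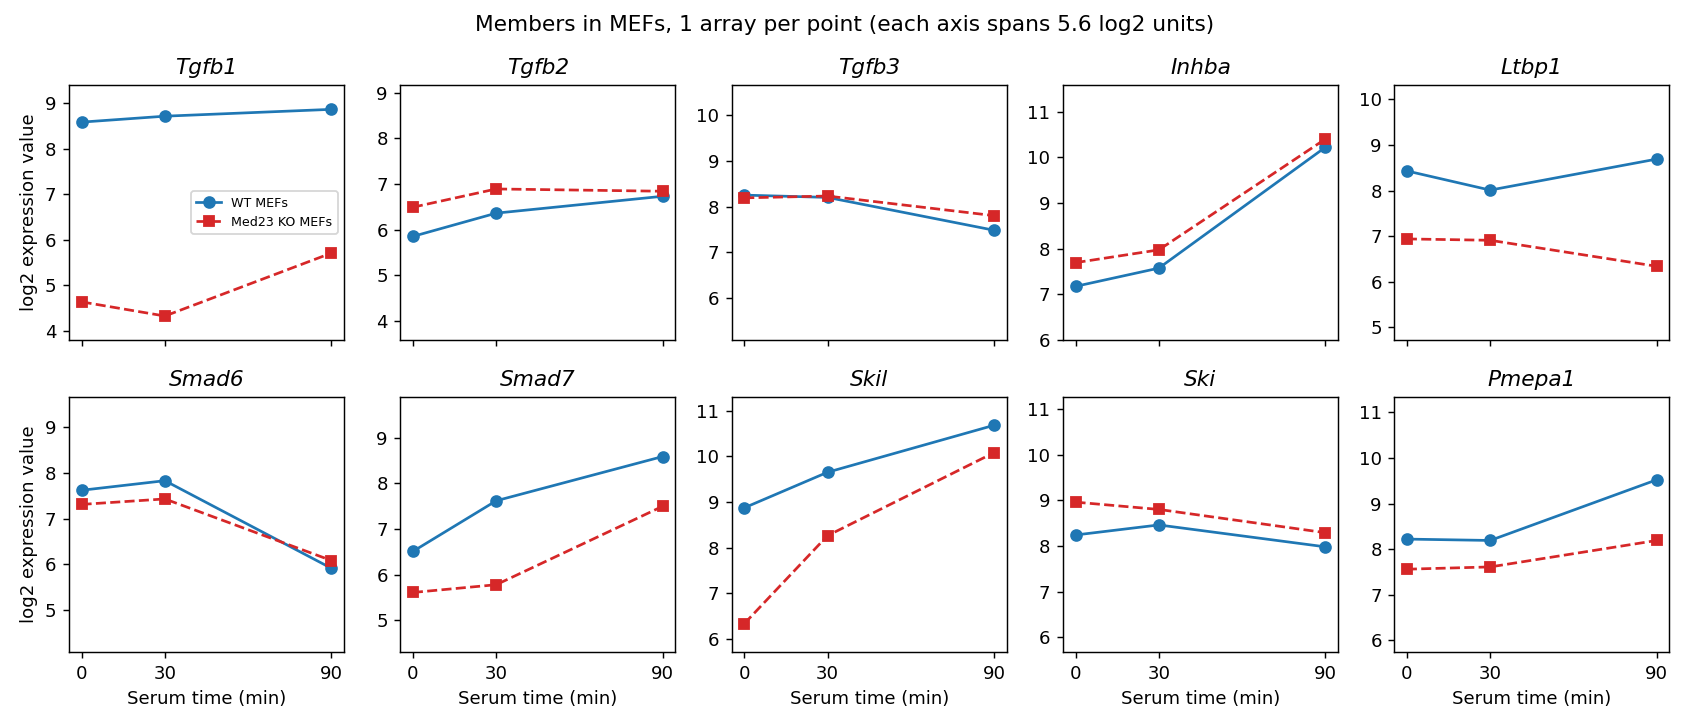
Log2 expression values of the 10 members (y axis) against serum time in min (x axis), in WT (circles) and Med23 KO MEFs (squares), with 1 array per point and no error bars. Tgfb1 and Ltbp1 are apart between the genotypes at every time, the lines of Inhba and Smad6 run close together, and Smad7, Skil and Pmepa1 are higher at 90 min than at 0 min in both genotypes.

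Among the ligands, Tgfb1 was the one called in KO MEFs. Its probe set 1420653_at read 8.58, 8.71 and 8.86 in WT MEFs and 4.64, 4.33 and 5.71 in KO MEFs at 0, 30 and 90 min, so the highest KO array lay well below the lowest WT array. The mean was 8.72 ± 0.14 in WT and 4.89 ± 0.72 in KO (SD over the 3 serum times, n = 3 arrays), a log2 difference of -3.82 (SE 0.24, 14.2-fold lower, limma adjusted p = 0.000101). The call held with each of the 6 arrays left out in turn, with differences from -4.16 to -3.55 and adjusted p from 0.00173 to 0.00447. The other Tgfb1 probe set, 1445360_at, read from 3.67 to 3.95 on the 6 arrays, near the array medians, and showed no such difference (-0.09, SE 0.14). In whole cultures such as these, fewer cells that express a gene and less RNA per cell cannot be told apart.

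Tgfb1 is also strongly expressed by macrophages and endothelium, so markers of those cells were set beside it. The summed level of 8 macrophage markers, as a log2 value, was 9.73 to 10.30 on the WT arrays and 8.25 to 8.31 on the KO arrays. The macrophage markers Ptprc, Adgre1, Itgam and Lyz2 were under the median of every MEF array, and Cd68 was under that of the 3 KO arrays. The others lay above it, 4 of the 8 on every WT array and 3 (Cd14, Csf1r and Lgmn) on every KO array. The same sum was 8.92 to 9.93 on the 10T1/2 arrays, above the KO range, though joint normalization of the lines is not known. Whether the sum tracks macrophage content was not tested. For 6 endothelial markers the summed level was 8.01 to 10.36 in WT and 6.63 to 8.83 in KO, with Pecam1, Cdh5 and Tie1 under the median of each array. Of these 6, 2 lay above the median on every WT array and 2 on every KO array. The 4 neural markers gave 8.60 to 9.45 and 8.04 to 8.49, and the 5 epithelial markers 6.11 to 6.34 and 6.11 to 6.29.

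The other ligands did not pass the test. Tgfb2 (1423250_a_at) read 5.85, 6.36 and 6.73 in WT and 6.49, 6.89 and 6.84 in KO, overlapping between genotypes (0.43, SE 0.15, adjusted p = 0.0639). Once the 90 min arrays were left out it passed (0.58, adjusted p = 0.0247), and its 3 further probe sets gave 0.11, 0.37 and 0.39. Tgfb3 (1417455_at) read 8.25, 8.20 and 7.48 in WT and 8.19, 8.23 and 7.80 in KO, with a difference of 0.10 (SE 0.14, adjusted p = 0.605). Inhba, given by array with the serum results, showed 0.37 (SE 0.13, adjusted p = 0.068), and it too passed once the 90 min arrays were left out (0.46, adjusted p = 0.0405) and with an intensity trend (0.0465).

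Ltbp1, whose product holds latent TGF-beta in the matrix, was lower in KO MEFs at every serum time. The probe set 1448870_at read 8.43, 8.01 and 8.69 in WT and 6.94, 6.91 and 6.34 in KO (-1.65, SE 0.24, 3.13-fold lower, adjusted p = 0.00296). The difference stayed between -1.92 and -1.29 with each array left out, with adjusted p of at most 0.0247. The weaker probe set 1447547_at gave -0.69 (SE 0.17, fit with every probe set as a row). It passed the filter through the WT 90 min array alone, and every other MEF array was under its median. Its difference was therefore read largely at background and is not counted as support. The probe set 1419786_at did not pass the filter in MEFs.

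Of the inhibitory Smads, Smad7 fell in KO MEFs and Smad6 did not pass. Smad7 blocks TGF-beta receptors and marks them for degradation. Its probe set 1423389_at read 6.51, 7.62 and 8.59 in WT and 5.61, 5.78 and 7.5 in KO, lower in KO at each time though the ranges overlapped (-1.28, SE 0.20, 2.42-fold lower, adjusted p = 0.00397). The call held with each array left out (adjusted p from 0.0161 to 0.0296). The second Smad7 probe set, 1443771_x_at, gave -0.71 (SE 0.33, adjusted p = 0.142) and was above the array median on the WT 90 min array alone. Smad6, which mainly restrains BMP receptors, read 7.62, 7.83 and 5.91 in WT and 7.31, 7.43 and 6.08 in KO (-0.18, SE 0.16, adjusted p = 0.397).

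The corepressors Skil and Ski, related proteins that hold Smad complexes inactive on DNA, went in opposite directions. Skil (1452214_at) read 8.87, 9.65 and 10.68 in WT and 6.33, 8.26 and 10.08 in KO, and the gap narrowed from -2.54 at 0 min to -1.39 at 30 min and -0.60 at 90 min. Its difference over the times was -1.51 (SE 0.34, 2.85-fold lower, adjusted p = 0.0148). The call was lost without the WT 30 min array (adjusted p = 0.0995), the KO 30 min array (0.0968) or the KO 0 min array (0.0503), where the difference was -1.0, and with levels under the array median raised to it for all genes (0.053). The weaker Skil probe set 1422054_a_at showed gaps of -1.17, -2.24 and 0.05 at the same times (-1.12, SE 0.39, adjusted p = 0.0682), with the KO arrays at 0 and 30 min under their medians.

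Ski (1426373_at) read 8.24, 8.46 and 7.98 in WT and 8.96, 8.80 and 8.29 in KO. The difference of 0.46 (SE 0.14, 1.37-fold, adjusted p = 0.0422) was higher in KO at all 3 times, with ranges that overlapped. This call was lost with any 1 of the 6 arrays left out (adjusted p from 0.0563 to 0.27) and, narrowly, with raised levels (0.0513) or every probe set as a row (0.0502), while the second Ski probe set, 1429192_at, gave the same difference of 0.46 with no overlap of the genotypes.

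Pmepa1, a membrane protein that keeps Smads from the receptor, fell on all 3 of its probe sets. The probe set 1422706_at read 8.22, 8.19 and 9.52 in WT and 7.56, 7.61 and 8.19 in KO (-0.86, SE 0.18, 1.81-fold lower, adjusted p = 0.0114). The call was lost without the 0 min or the 30 min array of either genotype, with adjusted p from 0.0508 to 0.0533. The probe sets 1422705_at and 1452295_at gave -1.25 and -0.98 (adjusted p = 0.01 and 0.0438, fit with every probe set as a row), the latter with all 3 KO arrays under their medians.

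The wider pathway was read through lists chosen by role, and KO shares are to be set against the 42.1% of all genes. In the latency and activation list, 7 of 9 tested genes fell and 0 rose, with a median of -0.72. That count was 3 without the 30 min array of either genotype. The integrin subunit gene Itgb8, whose heterodimer releases latent TGF-beta, fell from 7.10, 7.46 and 7.73 in WT to 3.14, 3.15 and 2.96 in KO (-4.35, SE 0.18, at least 11.6-fold lower with levels under the array median raised to it, adjusted p = 2.15e-05). Itgb5, another integrin subunit gene, fell too (log2 difference -2.54, SE 0.13, adjusted p = 5.19e-05). The other 5 that fell were Bmp1, Ltbp4, Furin, Thbs1 and Ltbp3, with differences from -0.83 to -0.57.

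Of 7 receptor genes tested in MEFs, 2 rose and 2 fell, with a median of 0.03. The activin receptor gene Acvr2a rose by 1.33 (SE 0.24) and the TGF-beta type I receptor gene Tgfbr1 by 0.64 (SE 0.14), while Acvr1b (-0.94, SE 0.13) and Tgfbr2 (-0.49, SE 0.16, adjusted p = 0.0469) fell. Among 6 genes for signalling Smads and their partners 1 fell, Smad3 (-0.60, SE 0.19, adjusted p = 0.049). The list of 11 other inhibitors and turnover factors held 2 higher and 3 lower. Those higher were the ubiquitin ligase gene Smurf2 (1.08, SE 0.17) and Usp15 (0.42, SE 0.12), a deubiquitinase known to favour the signal rather than inhibit it. Those lower included Bambi, a pseudoreceptor at the membrane (-0.86, SE 0.15), and the ubiquitin ligase gene Smurf1 (-0.84, SE 0.12). Without a 30 min array of either genotype, 1 of this list was lower and 0 receptors were higher.

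The 6 tested genes of other activin-class ligands and antagonists held 2 higher, Inhbb (0.95, SE 0.13) and Inha (0.60, SE 0.17), and 2 lower, the activin-binding antagonists Fstl3 (-1.28, SE 0.14) and Fst (-0.70, SE 0.12). Inha and Snai1 did not pass with raised levels (0.25 with adjusted p = 0.239, and -1.96 with 0.0852). The 17 tested target genes were divided, with 6 higher and 6 lower and a median of 0.09. The matrix gene Tgfbi (6.36, SE 0.14, at least 64.4-fold) and the actin-binding Tagln (5.86, SE 0.18) rose, and the cell-cycle inhibitor Cdkn2b (-6.13, SE 0.19, at least 53.4-fold lower) and the repressor gene Snai1 (-1.96, SE 0.53) fell. Of the 19 list genes named for this comparison, 9 lost the call without a 30 min array, 6 without a 0 min array and 3 without a 90 min array, of either genotype, and Itgb8, Itgb5, Tgfbi, Tagln and Cdkn2b lost it in none of these runs. Tgfbr2 and Smad3 also missed the threshold after quantile normalization (adjusted p = 0.0605 and 0.0545), with no filter (0.0532 and 0.0621), with every probe set as a row (0.0547 and 0.0552) and with raised levels (0.0694 and 0.0922). With no term for serum time both missed it (0.14 and 0.0741), as did Tgfbr1 (0.0831), Usp15 (0.0584), Smurf1 (0.181), Inha (0.137), Fst (0.618) and Snai1 (0.167), and 2 target genes fell in place of 6. Usp15 missed it in the fit over all 10 arrays too (0.0755).

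The serum series asked which genes respond over the first 90 min. At 30 min limma called 0 of the 10 members, against 0.251% of all genes (0.235% higher and 0.0168% lower). The lowest unadjusted limma p-values of the members were 0.0171 for Skil, 0.0404 for Smad7 and 0.0474 for Tgfb2. Their adjusted p-values were 0.497, 0.599 and 0.613. No member was called at 30 min with an intensity trend or in the fit over all 10 arrays either. Skil gave the highest value, 1.35 (SE 0.42, adjusted p = 0.497), with 0.78 in WT and 1.93 in KO. Smad7 gave 0.64 (SE 0.25), with 1.11 in WT and 0.17 in KO. Of the pathway lists, 1 gene was called, the immediate-early target Junb (4.53, SE 0.15, adjusted p = 0.000421), whose call was lost without either 30 min array.

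At 90 min, 4 members rose (Inhba, Skil, Smad7 and Pmepa1) and 1 fell (Smad6), where 13.5% of all genes were called, 4.56% higher and 8.95% lower. The median of the members was 0.64 and that of all genes -0.11. This comparison shares its 0 min arrays with the one at 30 min.

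Inhba showed the largest rise of the members at 90 min. It read 7.17 and 7.57 in WT at 0 and 30 min and 10.22 at 90 min, and 7.69, 7.97 and 10.40 in KO, so both 90 min arrays lay far above the other 4. The difference was 2.88 (SE 0.16, n = 2 pairs, 7.36-fold, adjusted p = 0.00196), 8.28-fold in WT and 6.54-fold in KO. Without the KO 0 min array the adjusted p was 0.0507, and in the 5 other runs it passed. The second Inhba probe set was under the median of every array.

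Skil rose by 2.78 (SE 0.42, 6.87-fold, adjusted p = 0.0138), with 3.51-fold in WT and 13.5-fold in KO. Smad7 rose by 1.98 (SE 0.25, 3.96-fold, adjusted p = 0.0089), and Pmepa1 by 0.96 (SE 0.22, 1.95-fold, adjusted p = 0.0396). Smad6 was the member that went down, from 7.62 and 7.31 at 0 min to 5.91 and 6.08 at 90 min, below all 4 earlier arrays (-1.47, SE 0.19, 2.77-fold lower, adjusted p = 0.00977). The 2 inhibitory Smads thus changed in opposite directions over the same interval.

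These calls rested on few arrays. Smad7 missed the threshold with any 1 of the 6 arrays left out (adjusted p from 0.0525 to 0.0972). Pmepa1 missed it in all but the run without the KO 90 min array (up to 0.303). Smad6 missed it without a 0 min or 30 min array of either genotype (0.0611 to 0.13). Skil missed it without the KO 0 min array (0.115), either 30 min array (0.0755 and 0.0732) or the KO 90 min array (0.0685). With raised levels Skil (0.0568) and Pmepa1 (0.0831) missed it as well. The sign of all 5 was the same in every run. Tgfb1, Tgfb2, Tgfb3, Ski and Ltbp1 did not pass at 90 min. Tgfb1 gave 0.67 (0.28 in WT and 1.07 in KO), Tgfb2 0.61, Tgfb3 -0.58 (adjusted p = 0.0702), Ski -0.47 and Ltbp1 -0.17. The second Ski probe set, 1429192_at, went the other way (0.21), and the further Tgfb2 probe sets gave -0.01, 0.51 and 0.32. The Ltbp1 probe set 1447547_at gave 0.51, with only the WT 90 min array above its median.

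Among the pathway lists at 90 min, the activin antagonist Fst rose by 2.63 (SE 0.15, 6.19-fold, adjusted p = 0.00196), from 7.84 to 10.39 in WT and from 7.05 to 9.76 in KO, beside Inhba. Of the 11 inhibitors and turnover factors 2 rose, Smurf1 (1.18, SE 0.15) and Zeb1 (0.67, SE 0.17), and of 9 latency genes 1 rose, Thbs1 (0.89, SE 0.17). No receptor (of 7) and no signalling Smad or partner (of 6) was called. Of 17 target genes 5 rose, with Junb at 2.75 (SE 0.15) and Bhlhe40 at 2.37 (SE 0.47), and 1 fell, Snai2 (-1.91, SE 0.24). All 7 of these named list calls were lost without the KO 0 min array, 5 without the WT 0 min or either 30 min array and 3 without either 90 min array. The 5 target genes that rose became 0 without the KO 0 min array, 1 without the WT 0 min or either 30 min array, and 3 without the KO 90 min array or with raised levels. With raised levels Zeb1 (adjusted p = 0.0689), Thbs1 (0.0506) and Bhlhe40 (0.0852) did not pass. Zeb1 also missed the threshold after quantile normalization (0.0584), with every probe set as a row (0.0622) and in the fit over all 10 arrays (0.178).

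Whether serum acted differently in KO cells was read from single arrays, with no test, since a model with that term has no residual. The response at 90 min differed between KO and WT by at least 1 on the log2 scale for 1 of the 10 members, Skil (1.94), against 6.40% of all genes, and at 30 min for Skil as well (1.15), against 1.63%. The weaker Skil probe set gave 1.22 at 90 min and -1.07 at 30 min, the same sign as the first at 90 min only. Its KO arrays at 0 and 30 min were under their medians. Its KO response at 30 min was therefore read at background, and that at 90 min started from background. All 3 Pmepa1 probe sets showed less of a rise in KO: 1.3, 1.92 and 1.71 in WT against 0.63, 0.64 and 0.05 in KO for 1422706_at, 1422705_at and 1452295_at. The last of these was under the median of all 3 KO arrays, so its KO response of 0.05 was read at background. For Smad7, the KO minus WT response was -0.19 on 1423389_at, and -1.64 on 1443771_x_at, whose 3 KO arrays were under their medians, so its KO response was read at background too.

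**Figure D2:**
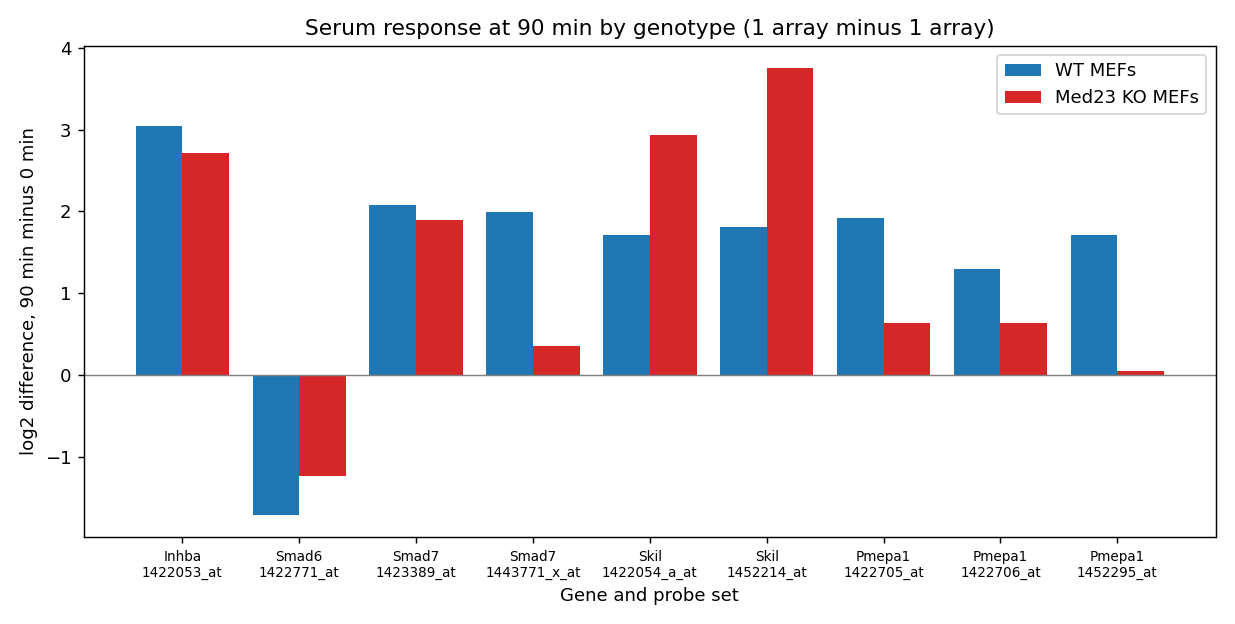
Serum response at 90 min (y axis, log2 value at 90 min minus that at 0 min, 1 array each, bars from 0) for 9 probe sets of the 5 members called at 90 min (x axis), in WT (blue) and Med23 KO MEFs (red). The Inhba and Smad6 bars are alike in both genotypes, the Skil bars are taller in KO, and the 3 pairs of Pmepa1 bars are shorter in KO, at 0.05 to 0.64 against 1.3 to 1.92, where the KO arrays of 1452295_at and of 1443771_x_at (Smad7) were under their medians.

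In the 10T1/2 cells, limma called 0 of the 10 members for MAL and 0 for the Med23 knockdown, against 0.0643% (0.0482% higher and 0.0161% lower) and 0% of 12440 genes. The lowest unadjusted limma p of the members was 4e-04 with MAL, for Skil (adjusted p = 0.0651). With the knockdown it was 0.00234, for Tgfb2 (adjusted p = 0.0693). The fit on these 4 arrays has 1 residual degree of freedom. The fit over all 10 arrays draws its spread from both lines. It called 2236 of 13034 genes for MAL and 2658 for the knockdown, so a call was common in that fit. Of the 10 members it called 2 for MAL (Inhba and Skil) and 1 for the knockdown (Tgfb2). These are given below with the values of both fits.

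**Figure D3:**
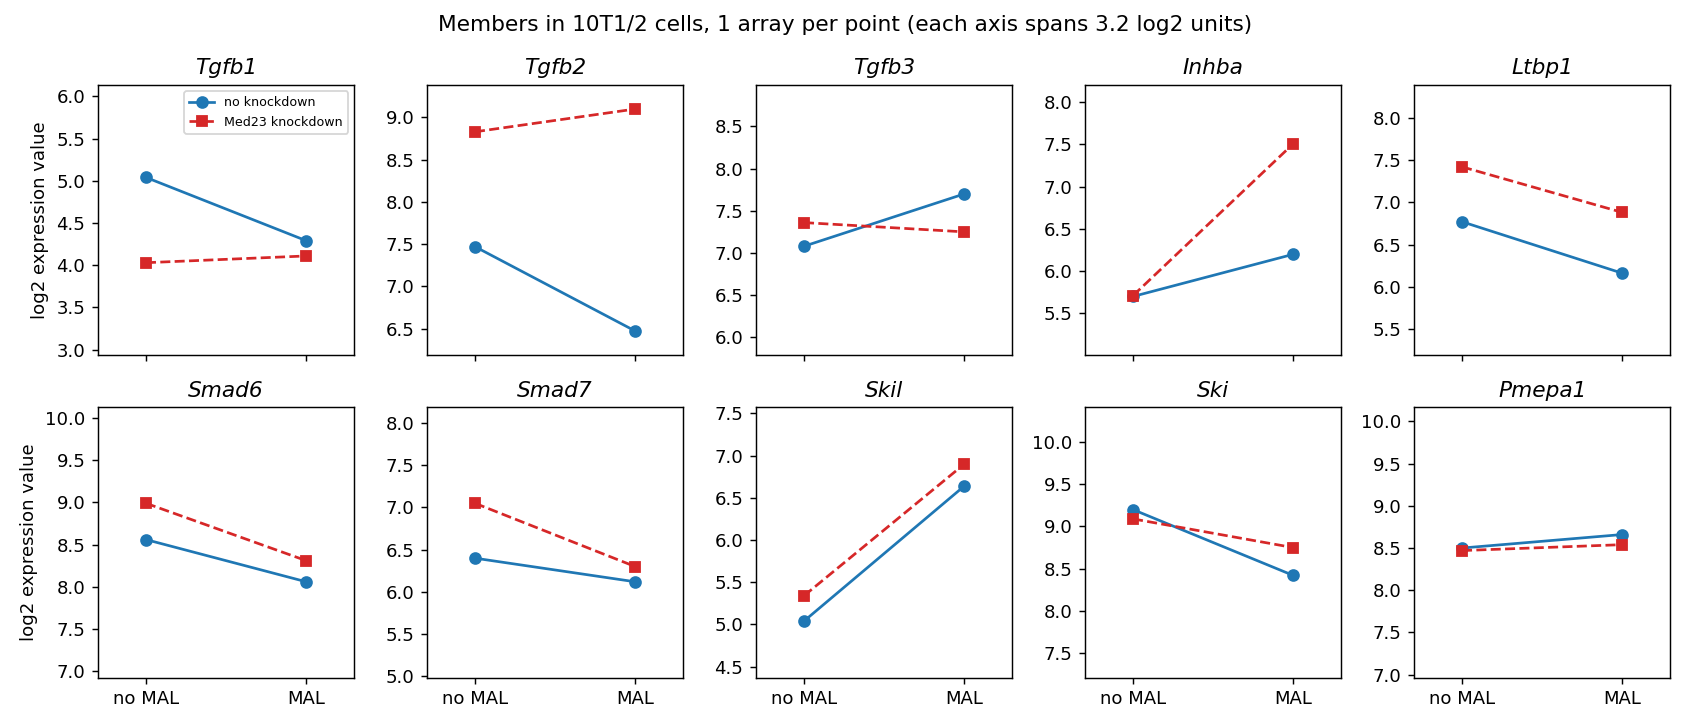
Log2 expression values of the 10 members (y axis) in 10T1/2 cells without and with MAL (x axis), without (circles) and with Med23 knockdown (squares), 1 array per point and no error bars. Both Tgfb2 arrays with knockdown lie above both without it, both Skil arrays with MAL lie above both without it, and Inhba stands out on the array with both treatments, at 7.51.

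Tgfb2 gave the largest difference of the members with the knockdown. The probe set 1423250_a_at read 7.47 in the control and 6.47 with MAL, and 8.83 with the knockdown and 9.10 with both, so the knockdown was 2.57-fold higher without MAL and 6.19-fold higher with it. The coefficient of 2.00 (SE 0.34, n = 2 pairs) did not pass in the 10T1/2 fit (adjusted p = 0.0693) and passed in the fit over all 10 arrays (1.99, adjusted p = 0.00695), after quantile normalization (1.91, adjusted p = 0.000801) and with an intensity trend (0.0464). The 3 further Tgfb2 probe sets gave 2.07, 2.26 and 2.73, each with both knockdown arrays above both other arrays (adjusted p = 0.109 for each, fit with every probe set as a row). On 1423250_a_at the 6 MEF arrays read from 5.85 to 6.89, below both knockdown arrays. Whether the 2 lines were normalized jointly is not known, which limits this comparison of levels.

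**Figure D4:**
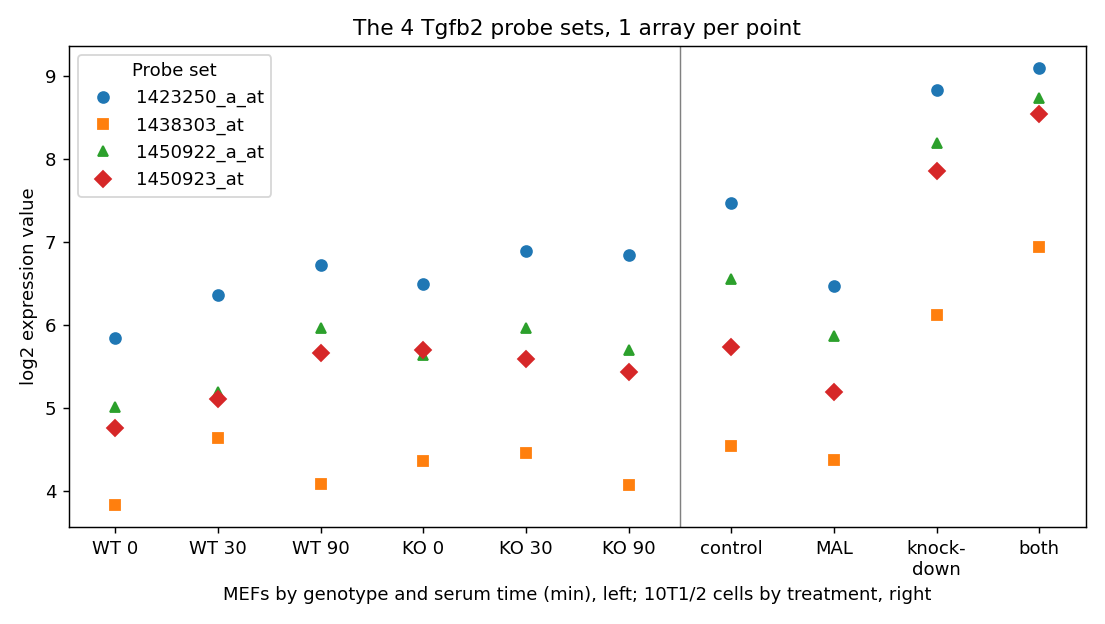
Log2 expression values (y axis) of the 4 Tgfb2 probe sets on the 10 arrays (x axis: MEFs by genotype and serum time on the left, 10T1/2 cells by treatment on the right), 1 array per point. On each probe set the knockdown array and the array with both treatments are the 2 highest of the 10, at 8.83 and 9.10 on 1423250_a_at. Whether MEF and 10T1/2 arrays were normalized jointly is not known.

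Skil read 5.04 in the control and 5.34 with the knockdown, and 6.64 with MAL and 6.90 with both. The MAL coefficient was 1.58 (SE 0.18, n = 2 pairs), 3.03-fold without and 2.95-fold with the knockdown. It did not pass in the 10T1/2 fit (adjusted p = 0.0651), and passed in the fit over all 10 arrays (0.0296), with an intensity trend (0.0351) and after quantile normalization (0.00062). The other Skil probe set was under the median of each of these arrays. For comparison within the same arrays, the smooth muscle target Tagln was the 1 gene of the pathway lists called with MAL (3.43, SE 0.18, adjusted p = 0.0265). Tagln did not pass with no filter (0.119), with raised levels (0.0697) or with every probe set as a row (0.103).

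Inhba read 5.70 in the control and 5.71 under knockdown, and MAL took it to 6.20 and 7.51. That is 1.41-fold alone and 3.48-fold with the knockdown, a departure from additivity of 1.3 on the log2 scale. The MAL coefficient of 1.15 (SE 0.35) did not pass (adjusted p = 0.128), and passed in the fit over all 10 arrays (0.0319) and after quantile normalization (1.12, adjusted p = 0.0146). A departure of at least 1 was seen for 2 of the 10 members, Inhba and Tgfb2 (1.27), against 7.15% of all genes, from single arrays and with no test.

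The other members differed less between treatments. Tgfb1 read 5.04 in the control and 4.29, 4.03 and 4.11 with MAL, the knockdown and both. All were below the lowest WT MEF array, though joint normalization of the lines is not known. Ltbp1 gave 0.68 with the knockdown (SE 0.18, adjusted p = 0.0974) and -0.58 with MAL (SE 0.18, adjusted p = 0.136). MAL coefficients were -0.59 for Smad6, -0.52 for Smad7 and -0.56 for Ski, with the 2 pairs of arrays on the same side for each and none past the test. Pmepa1 stayed between 8.47 and 8.66 on all 4 arrays, and Tgfb3 between 7.08 and 7.70.

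The KO effect in MEFs and the knockdown effect in 10T1/2 cells were then compared within the fit over all 10 arrays. The KO effect was lower than the knockdown effect for 5 members and higher for 0, where 29.3% of 13034 genes differed, 15.6% lower and 13.7% higher. The differences were -3.23 for Tgfb1 (SE 0.40, adjusted p = 0.00113), -2.33 for Ltbp1 (SE 0.35, adjusted p = 0.00288), -1.69 for Smad7 (SE 0.32, adjusted p = 0.00677), -1.79 for Skil (SE 0.49, adjusted p = 0.0289) and -1.57 for Tgfb2 (SE 0.37, adjusted p = 0.0172). Tgfb1 read 5.04 in the 10T1/2 control, where the array median was 3.66, so a fall as large as that in MEFs could not be seen there. For Ltbp1, Smad7 and Skil the KO coefficients were negative and the knockdown coefficients positive (0.68, 0.41 and 0.28, none past the test in that fit). Tgfb2 lost the call without the MAL array (-0.93, adjusted p = 0.0813) or the array with both treatments (-0.93, adjusted p = 0.0816), and Skil without any 1 of the 4 arrays (0.115 to 0.126) or with raised levels (0.0724). Inhba, at -0.29 in this fit, passed without the control or the knockdown array (-0.94, adjusted p = 0.0447 and 0.0448) and stood at 0.36 without the MAL array or that with both. A full knockout and a partial knockdown differ in dose, and the lines differ in their serum state, so dose, line and culture cannot be told apart here. Within the MEFs, genotype and culture cannot be told apart either.

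**Figure D5:**
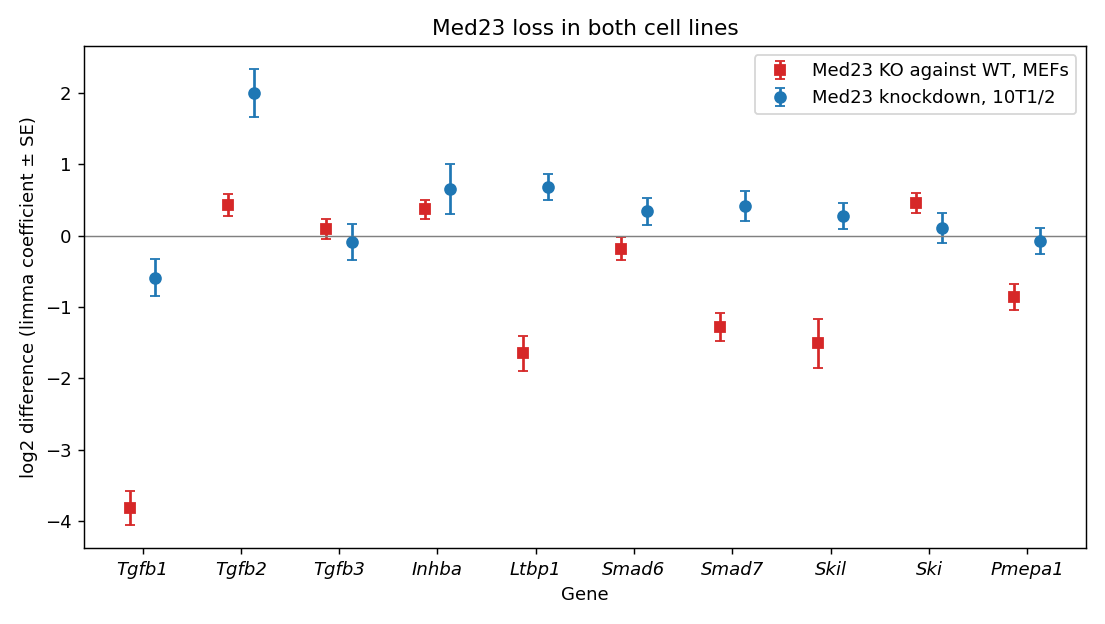
Log2 differences with Med23 KO or knockdown (y axis, limma coefficient, bars show the SE) for the 10 members (x axis), in MEFs (KO against WT, squares, 6 arrays) and 10T1/2 cells (knockdown, circles, 4 arrays). Tgfb1, Ltbp1, Smad7, Skil and Pmepa1 lie furthest below 0 in MEFs, with Smad6 just below it at -0.18, and Tgfb2 lies highest in 10T1/2 cells at 2.00.

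Likeness of profile was measured as the root mean square difference between log2 profiles centred on their mean over the 10 arrays, among 12460 named genes, as a description with no test. Tgfb1 (SD 2.05 over the arrays) was closest to the prostaglandin synthase gene Ptgds (0.308), the protease gene Mmp3 (0.35) and Tinagl1 (0.395). Tgfb2 (SD 1.07) was closest to Pfkfb3 (0.344) and Sytl2 (0.419), Inhba (SD 1.64) to Rasa2 (0.501) and Pdlim5 (0.595), and Smad6 (SD 0.99) to Mtmr4 (0.27) and Rhno1 (0.277). Skil (SD 2.01) was nearest to Mapk6 (0.691) and the MAP kinase phosphatase gene Dusp6 (0.737). Smad7 (SD 0.93) was nearest to Rnf19b (0.306) and Gse1 (0.315), Pmepa1 (SD 0.56) to Src (0.223), Ltbp1 (SD 0.86) to Matn2 (0.314), Tgfb3 (SD 0.45) to Sft2d2 (0.116) and Ski (SD 0.40) to R3hdm2 (0.137). The measure grows with a gene's SD, so its values do not rank the members. No member was among the 3 nearest genes of another member.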

How the data were processed

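Total RNA of the 10 cultures was labelled with biotin for Affymetrix arrays, per the labels' protocols. The values deposited by the authors are log2 expression values, 1 for each of 45101 probe sets. RMA and MAS5 are named per the submitters' processing notes. Their roles, and whether the lines were normalized jointly, were not given in the sources used here. Of the probe sets, 34945 had 1 gene symbol in the platform annotation, updated through Entrez identifiers to RefSeq (GRCm38.p6) for 34741. No build is named for the arrays, so gene coordinates were used for promoter windows only.

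Fits used limma 3.58.1 in R 4.3.3 on 1 probe set per gene, for genes whose highest value passed the median of all probe sets (3.90 in MEFs, 3.67 in 10T1/2 cells, 3.81 over all arrays). Residual degrees of freedom were 2, 1 and 3. p-values were two-sided and Benjamini-Hochberg adjusted over all genes tested, with a threshold of 0.05. An array gives no read depth, so precision is bounded by how few arrays there are. The fit was also run on simulated data with additive effects only, so that run says nothing on interactions held in the residual. Named list genes are, per list and comparison, the 2 largest called differences in each direction. For likeness, the 3 nearest genes were taken. The members and lists were chosen with earlier results of these data known. Groups came from the sample titles. The alternatives tried were quantile normalization, other filters, an intensity trend, all probe sets as rows, levels raised to the array median, a fit over all 10 arrays, and arrays or serum times left out.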

Additional observations from a re-analysis of the deposited data

Results flagged for a closer look

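The KO effect in the MEFs, where genotype and culture cannot be told apart, differed from the knockdown effect in the 10T1/2 cells for 5 members. This was in the fit over all 10 arrays. The KO effect minus the knockdown effect was -3.23 for Tgfb1, -2.33 for Ltbp1, -1.79 for Skil, -1.69 for Smad7 and -1.57 for Tgfb2 on the log2 scale, where 29.3% of all genes differed. The first 4 were lower in KO MEFs, while Tgfb2 gave 0.43 with KO and 1.99 with the knockdown. Tgfb1 was too low in the 10T1/2 control (5.04) for a fall as large as that in MEFs to be seen.

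In the pathway lists, 14 genes were named for this comparison, at most 2 a list in each direction. On the latency side it was -4.33 for Itgb8 (-3.52 with levels under the array median raised to it), which was under the median of all 4 10T1/2 arrays, so that a fall with the knockdown could not be seen. It was -3.49 for the matrix protein gene Thbs1, which read 4.74 and 5.08 on the 10T1/2 arrays without knockdown and 7.58 and 8.03 with it. For the antagonists Fst and Fstl3 it was -2.83 and -1.11. Fstl3 read 3.47 to 3.91 on the 10T1/2 arrays, near their medians, so it too had little room to fall there. Among receptors it was -1.20 for Tgfbr2 and -0.77 for Acvr1b. It was -1.17 for Smad4 and -1.12 for Smad3, and Smad3 missed the threshold with raised levels (limma adjusted p = 0.0543). It was -1.85 for Bambi and -0.84 for the phosphatase gene Ppm1a. Among the target genes it was 9.53 for Tgfbi (9.18 with raised levels), 4.77 for Tagln, -5.69 for Cdkn2b (-5.49 with raised levels) and -1.38 for Fn1. Cdkn2b read 3.39 to 3.92 on the 10T1/2 arrays, near or under their medians, and had no room to fall there. Tgfbi read 8.52 in the 10T1/2 control and 6.72, 5.12 and 3.77 with MAL, the knockdown and both, while it was higher in KO than in WT MEFs. With 1 of the 10T1/2 arrays left out, 3 or 4 of these 14 lost the call.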

How the results depend on the processing

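No paired analysis was possible because the labels number no replicates to pair on, and the factors that link the arrays (serum time, MAL and the knockdown) are already terms of the fits. Where a value below changed, the cause was not tested. The number of members called for KO against WT (6) was 2 with no term for serum time, 3 without the 30 min arrays, and 3 to 7 with 1 array left out, where the runs without a 90 min array lost Ski and gained Tgfb2 and Inhba. The number called at 90 min of serum (5) was 3 with levels raised to the array median, and 0 to 3 with 1 array left out, where the fit has 1 residual degree of freedom. At 30 min 0 members were called under every alternative. For MAL the members called went from 0 to 2 after quantile normalization, 1 with an intensity trend and 2 in the fit over all 10 arrays, and were 0 to 1 with a 10T1/2 array left out of that fit. For the knockdown they went from 0 to 1 under each of these 3 settings, and were 0 to 2 with an array left out. The number whose KO and knockdown effects differed (5) was 3 to 5 with a 10T1/2 array left out, with Skil lost in all 4 runs and Inhba gained in 2.

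Over all genes, the KO calls (5018) became 8380 with every probe set as a row, 2680 and 2398 without the 0 and 30 min arrays, 2857 with no term for serum time, and 2332 to 4896 with 1 array left out. At 30 min the 30 calls became 59 with a trend, 2 with raised levels, 46 with every probe set, 58 over all 10 arrays and 0 to 26 with 1 array left out. At 90 min the 1612 calls became 819 with raised levels and 0 to 869 with 1 array left out. For MAL the 8 calls became 2014 after quantile normalization, 542 with a trend, 2236 over all 10 arrays, 5 with the filter at the 75th percentile, 0 without a filter, 0 with raised levels, 0 with every probe set as a row, and 480 to 1253 with an array left out. For the knockdown the 0 calls became 2472, 599 and 2658 under the first 3 of these settings, and 176 to 1729. The 3814 genes whose effects differed between the lines became 6022 with every probe set and 2253 to 3139 with an array left out.

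The signs that changed belonged to values that were not called as reported, and Inhba for the difference between the lines was called in the 2 runs that gave -0.94. Tgfb3 for KO gave -0.01 without the 90 min arrays, and Ski and Pmepa1 at 30 min gave -0.04 and -0.08 after quantile normalization. With 1 array left out, the ranges that crossed 0 were -0.02 to 0.18 for Tgfb3 with KO. At 30 min they were -0.51 to 0.33 for Tgfb1, -0.12 to 0.11 for Tgfb3, -0.64 to 0.18 for Ltbp1, -0.17 to 0.23 for Ski and -0.20 to 0.22 for Pmepa1, and at 90 min -0.70 to 0.36 for Ltbp1. With MAL they were -0.75 to 0.08 for Tgfb1, -1.0 to 0.27 for Tgfb2, -0.11 to 0.62 for Tgfb3 and -0.30 to 0.22 for Med23. With the knockdown they were -0.45 to 0.28 for Tgfb3 and -0.11 to 0.33 for Ski. For the difference between the lines they were -0.18 to 0.55 for Tgfb3 and -0.94 to 0.36 for Inhba.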
